A study of Mus musculus with 4 samples.

Results

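Contractile genes are described here across 4 libraries of cultured dorsal root ganglia of the mouse, in which sensory neurons and their glia sit beside the spinal cord. The 10 genes were fixed by symbol: Acta2, Actg2, Tagln, Myl9, Tpm1, Tpm2, Cnn1, Cnn2, Cald1 and Myh11. Each has 1 row among the 23282 gene rows of the count tables. All ganglia came from C57BL/6 embryos at embryonic day 13, were grown as whole explants, and were moved to myelination medium at day in vitro (DIV) 8. Stimulated (ES) explants were given 20 Hz at 50 mV/mm for 1 h at 10 DIV, and control explants received no current. At 11 or 19 DIV the RNA of 3 pooled explants was collected, which gave 1 library for each of control at 11 DIV, ES at 11 DIV, control at 19 DIV and ES at 19 DIV. No group had a second library, so no difference between groups can be set against replicate error.

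Smooth muscle cells contract when myosin II pulls on actin filaments. Acta2 and Actg2 encode the smooth muscle actins, Myh11 the smooth muscle myosin heavy chain, and Myl9 a regulatory light chain whose phosphorylation switches the motor on. Tpm1 and Tpm2 (tropomyosins), Cald1 (caldesmon) and Cnn1 and Cnn2 (calponins) bind along the filament and regulate it, and Tagln (transgelin) binds and bundles actin. Pericytes on capillaries and myofibroblasts in healing tissue express many of these genes too, and serum response factor (Srf) with its cofactors of the myocardin family drives them through DNA sites called CArG boxes.

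Totals ranged from 5782834 to 7830950 reads per library, and levels are given as counts per 1000000 reads (CPM) after TMM scaling. The libraries were prepared from transcript 3' ends, so a read stands for a transcript end and was not divided by transcript length. Levels are compared between libraries, not between genes. The counts scattered far more than independent reads would. There were 2602 rows with over 200 reads in one library and 0 in another. Between any pair of libraries compared, the squared differences of genes with a mean of 500 to 3000 reads were 208 to 258 times counting error. This spread factor holds any real differences together with noise. Intervals called spread-adjusted below are 95% intervals on counts divided by it. On that scale the highest count of Acta2, 1279 reads, is worth at most 6.15 independent counts, and that of Tagln, 720 reads, at most 3.46.

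A gene was called higher or lower by size when its CPM differed at least 2-fold, the exact 95% counting interval excluded equality and the higher library held at least 50 reads. A stricter call, named spread-adjusted, needed in addition a 99% interval on the divided counts that did not include equality. Both rules compare libraries, not conditions.

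Genes that define differentiated smooth muscle were seen in part. Myh11 and Cnn1 had 0 reads in all 4 libraries. So had Myocd (myocardin), Des (desmin), Synpo2 (an actin bundler) and Ppp1r14a (an inhibitor of myosin phosphatase). Lmod1, leiomodin 1, had 243 reads in ES at 19 DIV and 0 in the other 3 libraries. Smtn (smoothelin, a smooth muscle cytoskeletal protein) had 32 and 255 reads in control and ES at 11 DIV and 518 and 159 at 19 DIV. Mylk, the kinase that phosphorylates Myl9, had 105, 230, 69 and 783 in the same order. Both were named after their values were seen. A count of 0 allows up to 3 reads, or 0.376 to 0.518 CPM depending on the library, if reads were independent, which the rows with 0 reads in one library and over 200 in another do not bear out. Whether the ganglia held smooth muscle cells was not tested. The other 8 members had reads in at least 3 libraries.

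**Figure D1:**
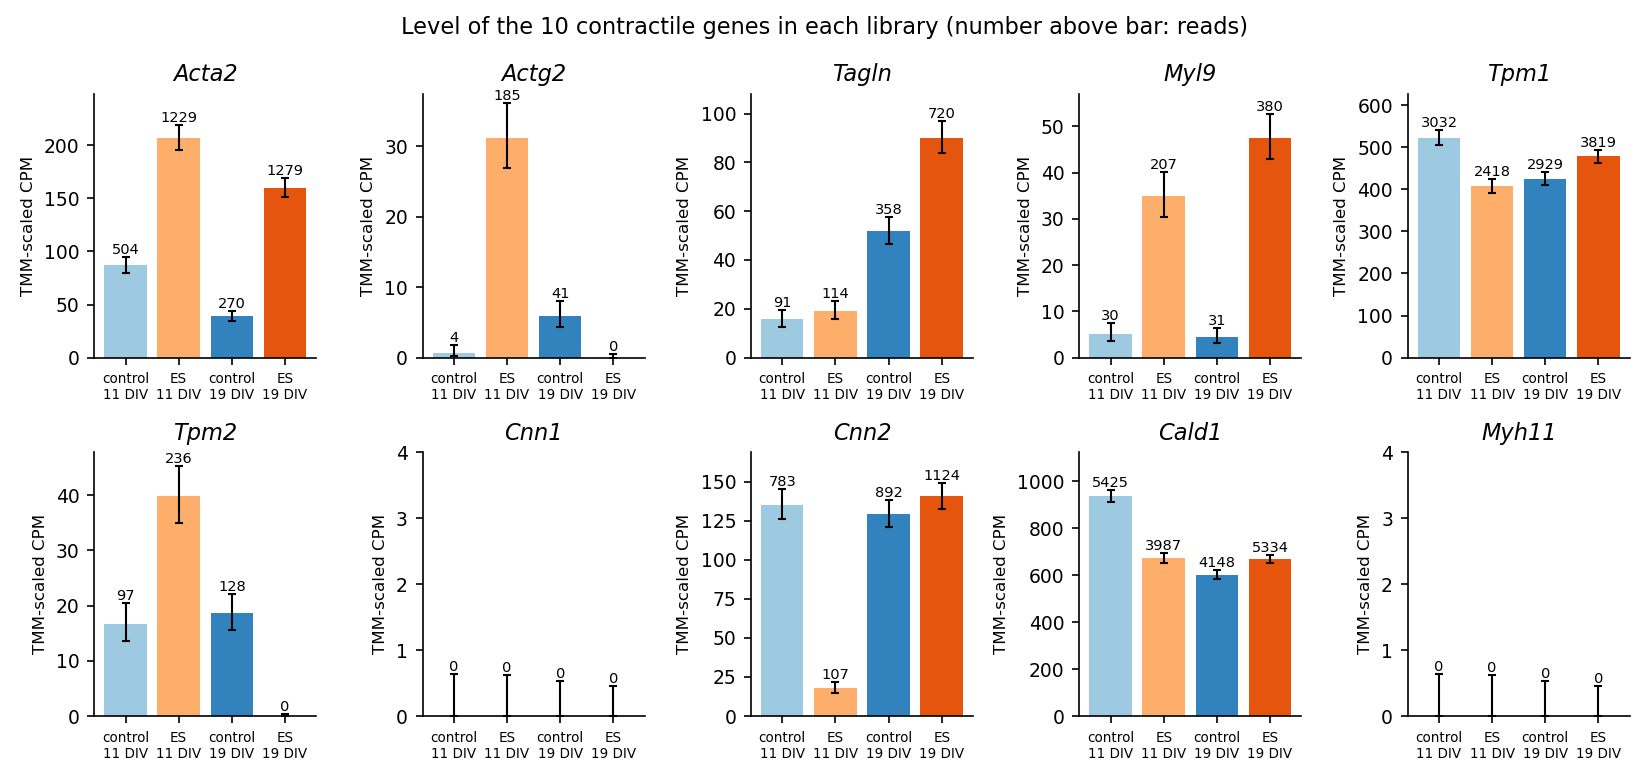
Level of each of the 10 genes in TMM-scaled CPM (vertical axes, each from 0) in control and ES at 11 DIV and control and ES at 19 DIV (bars), with exact 95% Poisson intervals that cover counting error only and the reads above each bar. Acta2 and Myl9 stood higher in both ES libraries, Tagln in both 19 DIV libraries, and Cnn1 and Myh11 had no read.

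Acta2, the actin that marks myofibroblasts and smooth muscle (ENSMUSG00000035783.9, protein-coding, chromosome 19, 34241090 to 34255590, minus strand, GRCm38), was higher in the ES library on both days. At 11 DIV the control library held 504 reads and the ES library 1229, or 87.0 and 207 CPM. At 19 DIV they held 270 and 1279 reads, or 39.2 and 160 CPM. Both ES libraries lay above both controls. The ratio of ES to control was 2.38 at 11 DIV (counting interval 2.15 to 2.65) and 4.09 at 19 DIV (3.58 to 4.68). The spread-adjusted intervals, 0.463 to 18.7 and 0.519 to 128, both included equality. A difference in the number of cells of a type and a difference in RNA per cell cannot be told apart in such pooled tissue.

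Myl9, the regulatory light chain (ENSMUSG00000067818.6, protein-coding, chromosome 2, 156775420 to 156781658, plus strand), showed the same order of libraries by treatment. It had 30 reads (5.18 CPM) in control and 207 (34.9 CPM) in ES at 11 DIV, and 31 (4.50 CPM) and 380 (47.6 CPM) at 19 DIV. The 2 controls were nearly equal and both ES libraries lay above them. The ratio was 6.75 at 11 DIV (counting interval 4.59 to 10.3) and 10.6 at 19 DIV (7.33 to 15.8). With so few reads the spread-adjusted intervals were too wide to inform, reaching down to 0.0215 and 0.0881.

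Of the members, 8 had enough reads for a call at 11 DIV and 7 at 19 DIV. Acta2 and Myl9 alone were called higher by size on both days, and no member was called lower on both. Of the 8460 genes with enough reads on both days, 8.09% were called higher on both and 8.65% lower on both. Different libraries entered the comparison on each day.

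Promoter stretches are shown for the members in which a CArG box was found, since Acta2 and Myl9 are among them. RefSeq promoters (GRCm38.p6, 250 bases before to 50 after the start) were at hand for 7 members: Acta2, Myl9, Tpm1, Tpm2, Cnn1, Cnn2 and, at 2 starts, Cald1. The 10-base CArG box reads the same on both strands and was searched as its strict consensus and with 1 G or C allowed in the A/T core. The strict box occurred in 1.63% of 32851 promoters and the relaxed one, which includes it, in 9.98%. Myl9 held 1 strict and 1 relaxed box, beginning 161 and 99 bases before the start. Cnn2 held 1 strict box, beginning 56 bases before it. Acta2 held 2 relaxed boxes, 84 and 34 bases before the start. Capitals mark the boxes, and each stretch is printed 5′ to 3′ on the gene's strand.
Acta2, chr19:34255383-34255472, minus strand: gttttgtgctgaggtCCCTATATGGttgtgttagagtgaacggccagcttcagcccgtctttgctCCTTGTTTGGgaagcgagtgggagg
Myl9, chr2:156775288-156775389, plus strand: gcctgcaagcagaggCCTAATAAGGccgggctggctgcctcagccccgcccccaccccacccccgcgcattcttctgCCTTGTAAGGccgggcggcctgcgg
Cnn2, chr10:79988529-79988568, plus strand: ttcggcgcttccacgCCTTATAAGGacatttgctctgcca
These matches describe letters in a window, not bound sites. The part of these boxes in the members' levels was not tested.

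Actg2, the enteric smooth muscle actin (ENSMUSG00000059430.14, chromosome 6, 83512905 to 83536265), was seen mainly in 1 library. At 11 DIV control had 4 reads and ES 185, and at 19 DIV 41 and 0, or 0.690, 31.2, 5.95 and 0 CPM. Its ratio of ES to control at 11 DIV was 45.2, with a counting interval of 17.4 to 168. At 19 DIV the order was the other way, at least 15.8-fold lower in ES with 0 put at 3 reads, but 41 reads were under the minimum for a call. The actins' coding sequences are very similar, but none of the 50-base words in the last 500 bases of Acta2 or Actg2 transcripts (GENCODE M21) occurred in a transcript of another gene.

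Tagln, transgelin (ENSMUSG00000032085.5, protein-coding, chromosome 9, 45929619 to 45936058, minus strand), separated the libraries by day. It had 91 reads (15.7 CPM) in control and 114 (19.2 CPM) in ES at 11 DIV, and 358 (51.9 CPM) and 720 (90.2 CPM) at 19 DIV. Both 19 DIV libraries lay above both 11 DIV libraries. The ratio of 19 to 11 DIV was 3.31 in control (counting interval 2.62 to 4.21) and 4.69 in ES (3.84 to 5.76). The spread-adjusted intervals reached down to 0.0646 and 0.203 and included equality. Between ES and control the ratio was 1.23 at 11 DIV, within counting error (0.922 to 1.63), and 1.74 at 19 DIV (1.53 to 1.98), under the 2-fold limit. The last 108 bases of Tagln overlap the end of Pcsk7, a protease gene on the other strand, and 39.4% of the 50-base words in its last 500 bases occur in Pcsk7 or the antisense Gm48529. Use of strand in counting is not given in the sources used here. Pcsk7 itself had 110, 12, 181 and 61 reads in the same library order, or 19.0, 2.03, 26.3 and 7.64 CPM. It too stood higher at 19 than at 11 DIV in each treatment, but was lower in ES than in control on both days. The part of the overlap in the Tagln values was not tested. Of the 8508 genes with enough reads in both day comparisons, 9.84% were called higher at 19 DIV by size with and without ES. Tagln was the only member among them, where 6 members had enough reads in control and 8 in ES.

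Cnn2, a calponin that non-muscle cells express too (ENSMUSG00000004665.10, chromosome 10, 79988584 to 79996062), stood apart in 1 library. It had 783 reads (135 CPM) in control at 11 DIV, 892 (129 CPM) in control at 19 DIV and 1124 (141 CPM) in ES at 19 DIV, but 107 (18.1 CPM) in ES at 11 DIV. ES at 11 DIV was at 0.134 times control (counting interval 0.108 to 0.164, spread-adjusted upper end 2.20). At 19 DIV the ratio was 1.09 (counting interval 0.995 to 1.19). From 11 to 19 DIV it was 0.957 in control (0.869 to 1.06) and 7.79 in ES (6.39 to 9.59). Both calls rested on the ES library at 11 DIV.

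Tpm2, beta-tropomyosin (ENSMUSG00000028464.16, chromosome 4, 43514711 to 43523765), had 97 control reads and 236 ES reads at 11 DIV, or 16.7 and 39.8 CPM. At 19 DIV it had 128 reads (18.6 CPM) in control and 0 in ES. The controls were alike, and the 2 ES libraries held the highest and the lowest value. ES was 2.38-fold higher at 11 DIV (counting interval 1.87 to 3.05) and at least 49.4-fold lower at 19 DIV with 0 put at 3 reads.

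Tpm1, alpha-tropomyosin (ENSMUSG00000032366.15, chromosome 9, 67022590 to 67049406), and Cald1, caldesmon (ENSMUSG00000029761.16, chromosome 6, 34598500 to 34775473), held most of the members' reads and differed least. Both are made in many non-muscle cells, where they serve stress fibres. Tpm1 had 3032, 2418, 2929 and 3819 reads in control and ES at 11 DIV and control and ES at 19 DIV, or 523, 408, 425 and 478 CPM. Its highest library was 1.28 times its lowest. Cald1 had 5425, 3987, 4148 and 5334 reads, or 936, 673, 602 and 668 CPM, with control at 11 DIV above the rest. No ratio of either gene reached 2-fold. For ES against control the spread-adjusted intervals of Tpm1 ran from 0.328 to 1.81 at 11 DIV and 0.505 to 2.57 at 19 DIV. Those of Cald1 ran from 0.377 to 1.35 and 0.570 to 2.20. The furthest Cald1 ratio, 0.643 for 19 against 11 DIV in control, had a spread-adjusted interval of 0.328 to 1.24. All 8 spread-adjusted intervals of these 2 genes reached 2-fold in one direction, so they hold a difference of that size in that direction as well as equality.

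**Figure D2:**
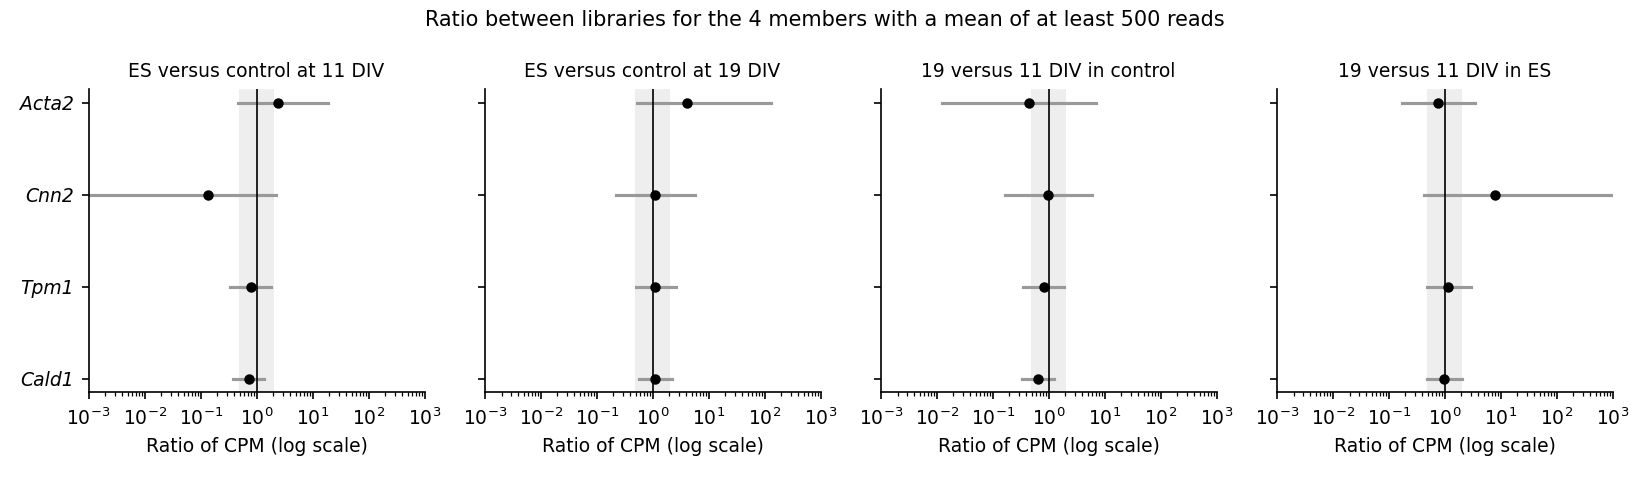
Ratio of CPM (log axis) in the 4 comparisons for the 4 members averaging at least 500 reads, shown as points with spread-adjusted 95% intervals (lines) around the 2-fold zone (shading). Every interval crosses equality, the points of Tpm1 and Cald1 stay inside the shading, and the lines of Cnn2 that leave the axis involve its 107 reads in ES at 11 DIV.

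Counted over the set at 11 DIV, 4 members were called higher in ES by size (Acta2, Actg2, Myl9, Tpm2), 1 lower (Cnn2) and 3 neither, of 8 with enough reads. Among all 9834 genes tested 28.9% were called higher and 29.6% lower. The members' median log2 difference was 0.76, against -0.03 over all genes tested. At 19 DIV 2 members were called higher (Acta2, Myl9), 1 lower (Tpm2) and 4 neither, of 7, where 29.4% of 10027 genes were called higher and 31.3% lower. The median was 0.17, against -0.04. The members' summed CPM, most of it from Tpm1 and Cald1, was 0.832 times control in ES at 11 DIV and 1.24 times at 19 DIV. At 19 DIV the share of members called higher was near that of all genes.

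Between days, Tagln was called higher at 19 DIV in control and Acta2 lower, and 4 members neither, of 6 (30.9% and 29.8% of 10025 genes). Acta2 was at 0.450 times its 11 DIV level in control (0.387 to 0.523) and at 0.772 in ES (0.713 to 0.836). In ES, Tagln and Cnn2 were called higher and Actg2 and Tpm2 lower, and 4 neither, of 8 (30.9% and 30.5% of 9884 genes). The medians were -0.18 in control and 0.11 in ES, against 0.02 and 0.03 over all genes tested.

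No member passed the spread-adjusted rule in any of the 4 comparisons. That rule called 0.102% of all genes higher and 0.214% lower for ES at 11 DIV, and 0.13% in each direction at 19 DIV. For 19 against 11 DIV it called 0.16% higher and 0.459% lower in control and 0.162% and 0.263% in ES.

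A fit over all 4 libraries with treatment and day as additive factors left 1 residual degree of freedom. By edgeR's quasi-likelihood test 0 of the 8 members tested passed an adjusted p of 0.05 for either factor, as did 0% of all 10050 genes. At an unadjusted p under 0.05 the same test gave 109 genes for treatment, 1.08%, and 202 for day, 2.01%, none of them a member. Acta2 came nearest for treatment, with a log2 difference of 1.64 and an adjusted p of 1 by edgeR. DESeq2 gave it a log2 difference of 1.66 with an adjusted p of 0.0329, and 379 of 10014 genes with an adjusted p passed there. The call for Acta2 therefore rested on the tool, with limma's adjusted p at 0.998. Myl9 had adjusted p-values of 1 (edgeR) and 0.268 (DESeq2) for treatment, and Tagln 1 and 0.194 for day.

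Within each protein family the members can be read against their relatives in the same library, which takes out scaling. Acta2 made up 0.814% of the reads of the 6 actin genes in control at 11 DIV and 2.29% in ES, and 0.547% and 2.11% at 19 DIV. The non-muscle actins Actb and Actg1 held nearly all the rest. Their ratios of ES to control were 0.823 and 0.869 at 11 DIV and 1.04 and 1.05 at 19 DIV. Of the reads of Myl9, Myl12a and Myl12b at 11 DIV, Myl9 made up 0.431% in control and 3.32% in ES. At 19 DIV it made up 0.481% and 6.19%. Myl12a and Myl12b are the light chains that most non-muscle cells use. Tagln was 1.43% and 1.33% of Tagln and Tagln2 reads at 11 DIV and 4.59% and 7.86% at 19 DIV. Cnn2 made up 3.90% of calponin reads in ES at 11 DIV and 22.8% to 30.0% in the other 3 libraries. Tpm1 made up 38.8% to 53.7% of tropomyosin reads. Tpm2 made up 1.61% and 3.79% of them in control and ES at 11 DIV, and 2.07% and 0% at 19 DIV. Actg2 made up 0.00646% and 0.345% of actin reads in control and ES at 11 DIV, and 0.0830% and 0% at 19 DIV.

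**Figure D3:**
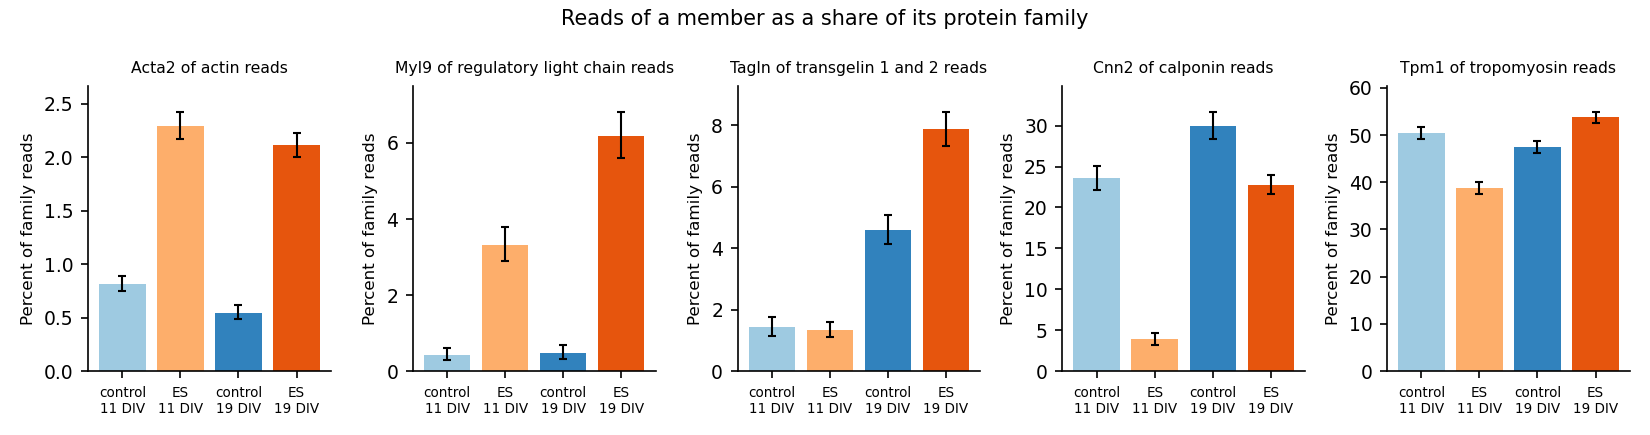
Reads of Acta2, Myl9, Tagln, Cnn2 and Tpm1 as a percent of the reads of their family (vertical axes from 0) in the 4 libraries (bars), with exact 95% binomial intervals that cover counting error only. Acta2 and Myl9 shares are higher in both ES libraries, and the Cnn2 share is low in ES at 11 DIV alone.

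Other genes of the contractile apparatus came from a fixed list of 10 (Smtn, Lmod1, Synpo2, Mylk, Des, Ppp1r12a, Ppp1r14a, Vcl, Flna, Actn1), of which 3 had no read in any library. In ES at 11 DIV 3 of 6 with enough reads were called higher by size, 0 lower and 3 neither, and at 19 DIV 3 of 7 higher, 1 lower and 3 neither. Such counts stand beside the shares of all genes, 28.9% higher and 29.6% lower at 11 DIV and 29.4% and 31.3% at 19 DIV. Flna (filamin A) and Ppp1r12a (a subunit of myosin phosphatase) were the most abundant. Flna was at 0.615 times control at 11 DIV and 1.56 at 19 DIV, and Ppp1r12a at 1.30 and 1.63. None passed the spread-adjusted rule. Of 11 non-muscle paralogs (Actb, Actg1, Myl6, Myl12a, Myl12b, Myh9, Myh10, Tpm3, Tpm4, Cnn3, Tagln2), 0 were called higher and 1 lower at 11 DIV, and 1 higher and 0 lower at 19 DIV. Their median log2 differences were -0.14 and -0.03.

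The list of Srf and its cofactors held Srf, Myocd, Mkl1, Mkl2, Csrp1, Csrp2 and Fhl2. For ES against control 1 member was called higher and 2 lower at 11 DIV, and 2 higher and 2 lower at 19 DIV, of 6 with enough reads on each day, beside 28.9% and 29.6% of all genes at 11 DIV and 29.4% and 31.3% at 19 DIV. At 11 DIV Mkl2 was the higher gene and Mkl1 and Fhl2 the lower. At 19 DIV Srf and Fhl2 were higher and Mkl1 and Csrp2 lower. Csrp1 and Csrp2, LIM-domain proteins and the most abundant of the list, were at 1.11 and 1.40 times control at 11 DIV and 0.690 and 0.485 at 19 DIV. No member passed the spread-adjusted rule.

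**Figure D4:**
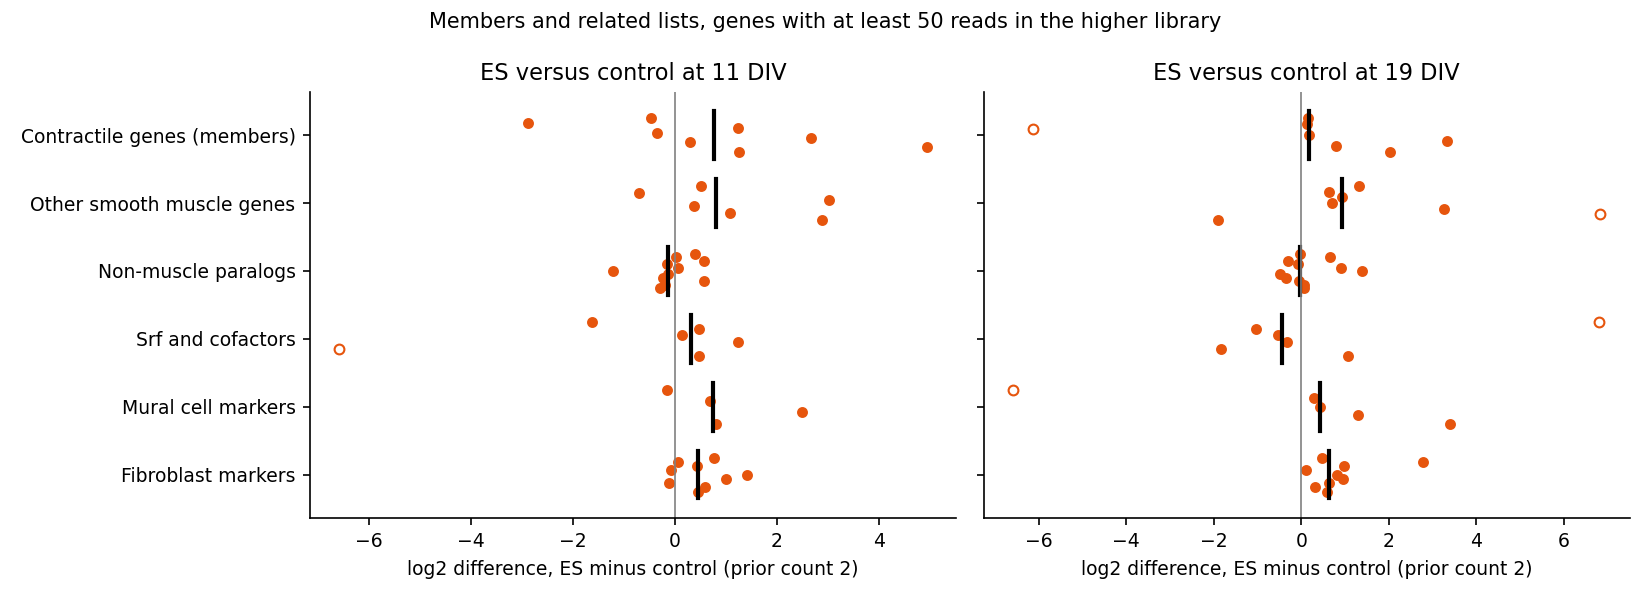
Log2 difference of ES minus control (horizontal axes, prior count of 2) at 11 and 19 DIV for genes of the contractile set and 5 related lists with at least 50 reads in the higher library (points, open where 1 library had 0 reads), with list medians (black bars). The members spread on both sides of 0, with medians of 0.76 and 0.17, and the non-muscle paralogs lie closer to 0, with medians of -0.14 and -0.03. Most of those paralogs had more reads than most members, and the part of read depth was not tested.

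Markers of cell types that could carry these genes were set beside Acta2 and Myl9. The summed level of 9 fibroblast markers (Col1a1, Col1a2, Col3a1, Dcn, Lum, Pdgfra, Postn, Fn1, Thy1) was 5259 and 7087 CPM in control and ES at 11 DIV and 9453 and 13534 at 19 DIV, 1.35 and 1.43 times higher in ES. By size 1 of 9 was called higher in ES on each day and none lower, where 28.9% of all genes were called higher at 11 DIV and 29.4% at 19 DIV. Fn1, fibronectin, passed the spread-adjusted rule at 19 DIV (6.94-fold, 1.58 to 67.5). It had 447 and 3592 reads in control and ES there, against 1398 and 1493 at 11 DIV, where the ratio was 1.04. Its control at 19 DIV was called lower by size than control at 11 DIV (0.269 times). Col1a2 (2.34-fold, 1.70 to 3.27) passed the spread-adjusted rule for 19 against 11 DIV in control and Col1a1 (2.09-fold, 1.45 to 3.06) in ES. The same ratio was 1.93 (1.46 to 2.57) for Col1a2 in ES and 1.90 (1.25 to 2.96) for Col1a1 in control. Both were under the 2-fold limit. The 10 pericyte and mural markers summed to 132 and 236 CPM at 11 DIV and 283 and 388 at 19 DIV. Kcnj8, Abcc9, Higd1b and Anpep were at 0 in all 4 libraries, while the most abundant, Mcam and Cspg4, were at 1.61 and 5.73 times control at 11 DIV and 1.23 and 2.48 at 19 DIV. At 11 DIV 1 of 4 mural markers with enough reads was called higher in ES, 0 lower and 3 neither. At 19 DIV 2 of 5 were called higher (Rgs5, Cspg4), 1 lower (Ndufa4l2) and 2 neither. Among all genes 28.9% were called higher and 29.6% lower at 11 DIV, and 29.4% and 31.3% at 19 DIV. Ndufa4l2 had 213 and 196 reads in control and ES at 11 DIV and 176 and 0 at 19 DIV. Pdgfrb, a receptor that pericytes express, had 112 and 201 reads at 11 DIV and 40 and 0 at 19 DIV. It was thus lower at 19 than at 11 DIV in each treatment, while the sum of the list was higher. Their part in the members' values was not tested.

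Endothelial markers summed to 60.9 to 104 CPM, and Pecam1, Tek, Cldn5 and Flt1 were at 0 throughout. The most abundant, Egfl7 and Emcn, had 75 and 0 reads in ES at 11 DIV and 355 and 111 in control, and 240 and 211 in ES at 19 DIV and 383 and 174 in control. Cdh5, the endothelial cadherin, went the other way, with 43 and 286 reads in control and ES at 11 DIV and 0 and 64 at 19 DIV. By size 1 of 4 was called higher in ES and 3 lower at 11 DIV, and 1 of 3 higher and 0 lower at 19 DIV. The shares of all genes were 28.9% higher and 29.6% lower at 11 DIV, and 29.4% and 31.3% at 19 DIV. Striated muscle markers summed to 2.13 to 17.7 CPM, with 8 of 12 at 0 in all libraries, and Tnnt3 and Tnni1, troponins, had reads in 1 library each (103 and 80). The 6 neuron markers were Prph, Stmn2, Tubb3, Elavl4, Snap25 and Isl1. They summed to 1921 and 3144 CPM in control and ES at 11 DIV and 2559 and 1002 at 19 DIV. By size 3 of 6 were called higher in ES and 0 lower at 11 DIV, and 0 higher and 5 lower at 19 DIV. Beside them stand 28.9% higher and 29.6% lower of all genes at 11 DIV, and 29.4% and 31.3% at 19 DIV. Elavl4 was called neither at 19 DIV, at 1.18 times control. The neuronal genes Prph, Stmn2 and Tubb3 passed the spread-adjusted rule as lower in ES at 19 DIV (0.376, 0.332 and 0.316 times control), and Prph and Stmn2 for 19 against 11 DIV in ES (0.285 and 0.311). The part of these differences in the members' CPM was not tested.

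Genes whose levels over the 4 libraries lay nearest to those of Acta2 were found by distance between centred log2 CPM profiles among 2953 genes that averaged at least 500 reads. They were Ufsp2 (distance 0.165), Ttyh2 (0.336), Soat1 (0.343), Ddx3y (0.355) and Cited2 (0.403). Ddx3y is Y-linked and had 590 and 1408 reads in control and ES at 11 DIV and 315 and 1972 at 19 DIV. Other Y-linked genes did not share that order. Eif2s3y had 298, 373, 519 and 453 reads, Kdm5d 124, 92, 145 and 14, and Uty 122, 206, 0 and 0. Xist, the X-inactivation RNA, had 0 reads in all 4 libraries. The sex of the pooled embryos is not given in the sources used here, and its part in these values was not tested. Ufsp2 had 70.3 and 168 CPM in control and ES at 11 DIV and 33.5 and 149 at 19 DIV. The nearest to Tagln were Myo10 (0.201), Rab38 (0.315), Col8a1 (0.351), Otud4 (0.371) and Peg3 (0.402). Col8a1, a short-chain collagen, had 142 and 156 CPM at 11 DIV and 366 and 587 at 19 DIV. With 4 points a profile, some close neighbours are found for almost any gene, and these are descriptions of the libraries.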

How the data were processed

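The deposited values are the authors' raw counts of reads by gene symbol in 4 tables. Per the labels' protocols, 500 ng of RNA entered a 3' tag kit (QuantSeq). Bowtie2, bedtools and mm10 come from the submitters' processing notes. No version, duplicate handling or strand use is given in the sources used here. Members were matched by symbol. Counts were scaled by TMM (edgeR 4.0.16, R 4.3.3). Ratios carry exact Clopper-Pearson intervals. The spread factor is the median squared difference relative to its value under counting error alone, and log2 differences used a prior count of 2. The fit over all genes used edgeR's quasi-likelihood test after filterByExpr with Benjamini-Hochberg adjustment. DESeq2 1.42.0 and limma 3.58.1 with voom were alternatives, as were other scalings, read and fold minimums and thinning. Intervals and limits for 0 cover counting error only. The fold rules and the fit were tested on simulated data with far less scatter than these libraries. That test therefore cannot show how they perform at the scatter seen here. Positions are from GENCODE M21 (GRCm38, the assembly of mm10). All members, the 2 most abundant genes of each of 9 other lists and any past the spread-adjusted rule were named, as were the 5 nearest profiles to Acta2 and Tagln, except that 1 list (Schwann cell markers) is not reported here. Members, lists and rules were chosen with earlier results of these data known. Python 3.11.15 did the rest.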

Additional observations from a re-analysis of the deposited data

Results flagged for a closer look

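Tpm2 was the only member called by size in opposite directions on the 2 days. ES was 2.38-fold higher than control at 11 DIV (236 against 97 reads) and at least 49.4-fold lower at 19 DIV (0 against 128 reads, with 0 put at 3). The difference between days was not tested, and neither ratio passed the spread-adjusted rule.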

How the results depend on the processing

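No member's ratio called by size changed direction under another scaling or under thinning to 5782834 reads, and no ratio moved by more than 1.096 times. Of 28 ratios, 1 crossed equality: Cnn2 for 19 against 11 DIV in control, 0.957, ran from 0.946 to 1.05. Scaling by total counts put the median of all genes at 0.15 (log2) in that comparison, against 0.02 with TMM. Of 120 counts of called members under alternatives, 9 moved by over 1.5 times. A minimum of 500 reads left 1 member higher (Acta2) in ES at 11 DIV and 1 at 19 DIV, 0 lower at 19 DIV, 0 higher for 19 against 11 DIV in control and 0 lower in ES. A minimum of 10 reads added Actg2, giving 2 lower in ES at 19 DIV and 2 higher at 19 DIV in control. A minimum fold of 1.5 added Cald1 to Acta2, giving 2 lower for 19 against 11 DIV in control. DESeq2 gave 1 member, Acta2, for treatment where edgeR gave 0, and the cause was not tested. With a mean of at least 2000 reads, 0 of the 5 profiles nearest Acta2 and 1 of those nearest Tagln (Col8a1) were named again. The additive fit sets ES against control within each day, and the labels give no replicate numbers for another block. Leaving out 1 of the 4 libraries would leave it no residual degree of freedom. At this scatter the spread-adjusted interval of every member's ratio included equality.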

Other observations

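Among genes of the related lists, chosen here after their values were seen, Mylk was 2.14-fold and 9.80-fold higher in ES. Vcl, vinculin of focal adhesions, had 109 and 924 reads at 11 DIV and 421 and 927 at 19 DIV. Actn1, an actin crosslinker, was 1.43-fold and 2.50-fold higher in ES. Smtn went both ways, as did Myh9, the heavy chain of non-muscle myosin, at 0.434 times control at 11 DIV and 2.61 at 19 DIV. None of these genes passed the spread-adjusted rule.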
